A study of Capra hircus with 3 samples.

Results

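The 48 genes described here carry newly made proteins into the endoplasmic reticulum (ER) and on to the Golgi in the mammary gland of the Laoshan dairy goat. They were chosen by name, and all 48 were found by NCBI gene ID among 13023 protein-coding genes with deposited values. Of them, 21 act in translocation into the ER, 9 belong to the COPII coat, 7 to the COPI coat, and 11 are cargo receptors of these vesicles or the small GTPase RAB1A. The values are FPKM (fragments scaled by transcript length and by the number of mapped reads), which the authors made from 1 library for each of 3 lactation stages. Each library was built from the pooled mammary RNA of 5 goats of 4 years of age in lactation number 3. The samples were taken by surgery on days 10 (early), 90 (peak) and 210 (late) after parturition. The study's methods describe a single set of 5 goats for all 3 stages, so the pools are not of separate animals. With 1 library per stage, no spread between animals can be estimated, so no difference given here has a replicate check or a p-value. In whole tissue, fewer secretory cells and less RNA per secretory cell cannot be told apart.

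The milk protein genes PAEP, CSN1S1 and CSN3 were abundant in every library, the lowest value being 3989 FPKM for CSN3 in the peak-labelled one. A doubt concerns the labels peak and late. In lncRNA genes, the direction of difference between these columns was mostly the reverse of that in the study's own lists for these stages. Late over peak by label had the direction of the study's peak and late list in 20 of 148 genes. Peak over early by label had that of its early and peak list in 36 of 66 genes, and that of its early and late list in 117 of 135. Each library is therefore named below by its label only. If these columns are exchanged, the library with the low values below is that of day 210 and not that of day 90. The lowest value among the 3 libraries does not move with this choice, but the day it belongs to does.

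Proteins that are to be secreted carry a signal peptide. The signal recognition particle binds it at the ribosome and docks at a receptor in the ER membrane, and the chain passes through the SEC61 channel, while signal peptidase removes the signal. COPII vesicles then carry cargo out of the ER, and COPI vesicles bring receptors and escaped ER proteins back. A lactating alveolar cell sends caseins and whey proteins along this route in bulk.

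In 44 of the 48 genes (91.7%), the lowest of the 3 values was that of the peak-labelled library. Among all protein-coding genes this share was 41.2%, and among the 4976 with a mean of at least 10 FPKM, the range in which most of these genes lie, it was 62.6%. Many members are well above that limit, with 34 of 48 in the top 10% of protein-coding genes in the early-labelled library. The 4976 genes, called the more abundant ones below, are therefore not matched to the members in abundance, and a matched set was not compared. In 41 of 48 (85.4%) the order was late over early over peak by label, an order seen in 25.9% of all protein-coding genes and in 41.1% of those with a mean of at least 10 FPKM. The median over the 48 genes was 45.1 FPKM in the early-labelled library, 30.7 FPKM in the peak-labelled library and 53.6 FPKM in the late-labelled library. Values of the members did not reach 0 in any library, and 46 of 48 were at 10 FPKM or more in all 3, the exceptions being SEC23A and KDELR3. The exceptions to the low peak-labelled value were SRP68, SPCS2, SEC11A and SEC23A.

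**Figure D1:**
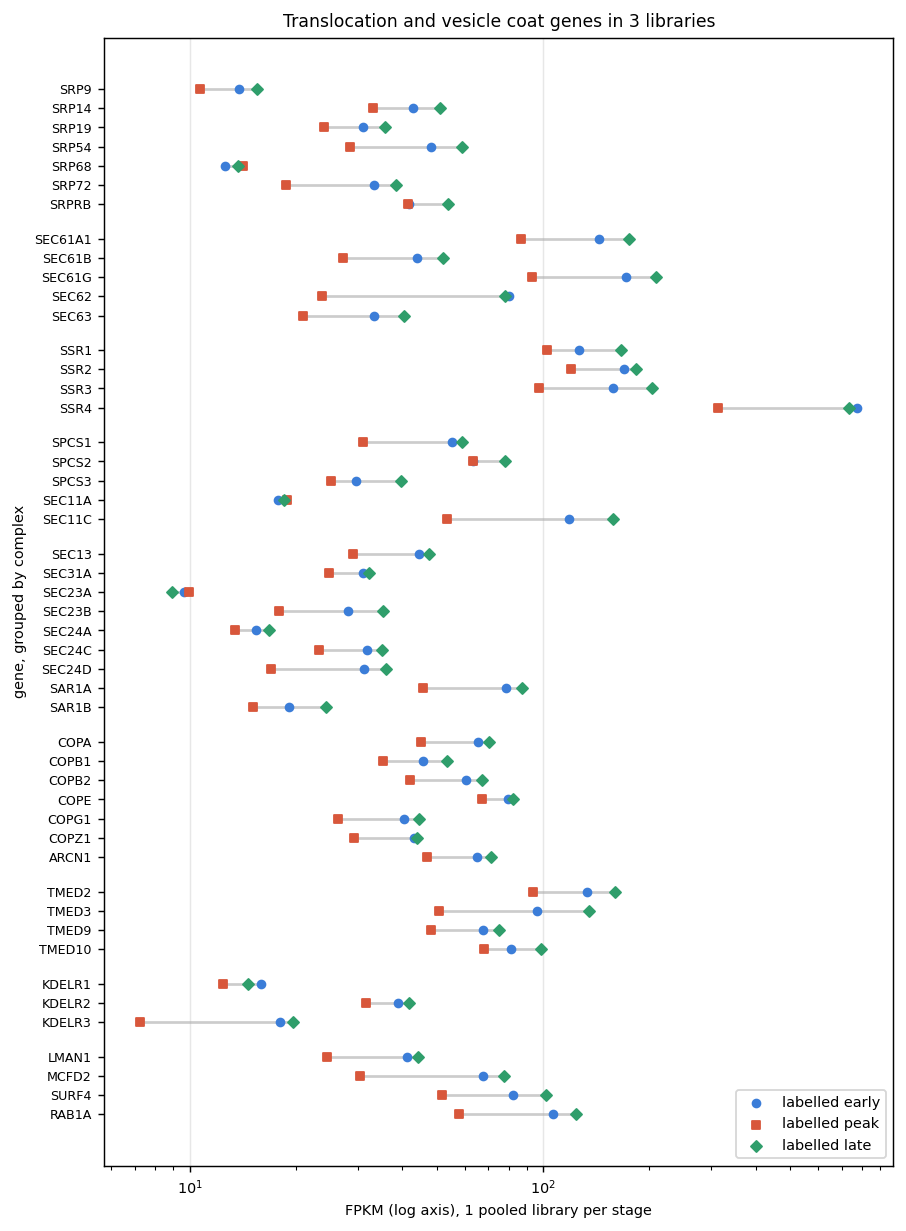
FPKM on a log axis of the 48 genes in the early-labelled (blue circles), peak-labelled (red squares) and late-labelled (green diamonds) library, 1 pooled library each, with the genes grouped by complex and no error bars because there are no replicates. The red square is the leftmost symbol in 44 of 48 genes.

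Compared with the early-labelled library, 44 of 48 genes were lower in the peak-labelled one, a direction shared by 49.4% of all protein-coding genes and 69.3% of those with a mean of at least 10 FPKM. Their median log2 ratio was -0.53, an interquartile range of -0.77 to -0.33, against 0.01 over all protein-coding genes and -0.22 over those with a mean of at least 10 FPKM. At a fold of at least 1.5, 22 (45.8%) were lower and 0 higher, where 15.7% of all protein-coding genes and 22.6% of the more abundant ones were lower, and 21.1% and 6.23% higher. At a fold of at least 2, 5 (10.4%) were lower, which is close to the 8.64% of the more abundant genes and to the 6.8% of all, and 0 were higher, against 2.49% and 10.9%. The genes thus stood apart by a moderate difference in many members, and not by the number of large differences. Each library was also rescaled to one sum over protein-coding genes without milk proteins, here only CSN3, LALBA, CSN1S1, PAEP and GLYCAM1. This moved every peak over early log2 ratio by 0.31. With it, 37 of 48 (77.1%) were still lower and the median was -0.22, against 41.6% and 0.09 for the more abundant genes. With milk proteins kept in the sum, the picture differed. The 48 genes then made up 0.763% of the protein-coding sum in the early-labelled, 0.802% in the peak-labelled and 0.976% in the late-labelled library. On that scale the early-labelled library was the lowest, so the low peak-labelled value depends on the scaling. That sum includes LALBA, at 70053 FPKM in the early-labelled, 15214 FPKM in the peak-labelled and 0 in the late-labelled library. Shares of a sum that leaves out LALBA alone were not computed, so how far this order rests on that gene was not tested.

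Between the late-labelled and the peak-labelled library, 45 of 48 genes were higher in the former, compared with 48.2% of all protein-coding genes and 68% of the more abundant ones. The median log2 ratio was 0.69, against -0.03 over all protein-coding genes and 0.24 over the more abundant ones. A fold of at least 2 was reached by 13 genes (27.1%), all of them higher in the late-labelled library, where 8.56% of all protein-coding genes and 11.2% of the more abundant ones were, and 17.4% and 4.76% were lower. A 1.5-fold difference in this direction was seen in 35 (72.9%), against 17.9% and 25.9%. With the rescaled libraries 43 of 48 remained higher, but the genes at least 2-fold apart numbered 5. The values just inside the threshold were those of SEC61A1 and SRP72, at 2.03-fold and 2.04-fold, and just outside lay SURF4 and SEC23B, both at 1.97-fold.

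Late-labelled and early-labelled libraries lay close together. Of the 48 genes, 44 were higher in the late-labelled library, in comparison with 45.9% of all protein-coding genes and 54.4% of the more abundant ones, but the median log2 ratio was only 0.18. The ratios ran from -0.13 for KDELR1 to 0.48 for TMED3. No member reached a fold of 1.5 in either direction, while 4.88% of all protein-coding genes were at least 1.5-fold higher and 12.9% at least 1.5-fold lower, and 2.01% and 4% of the more abundant ones. At a fold of at least 2 these shares were 1.97% and 6.74% of all, and 0.402% and 1.37% of the more abundant ones. Every comparison shares a library with each of the others, so the 3 comparisons are not independent.

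**Figure D2:**
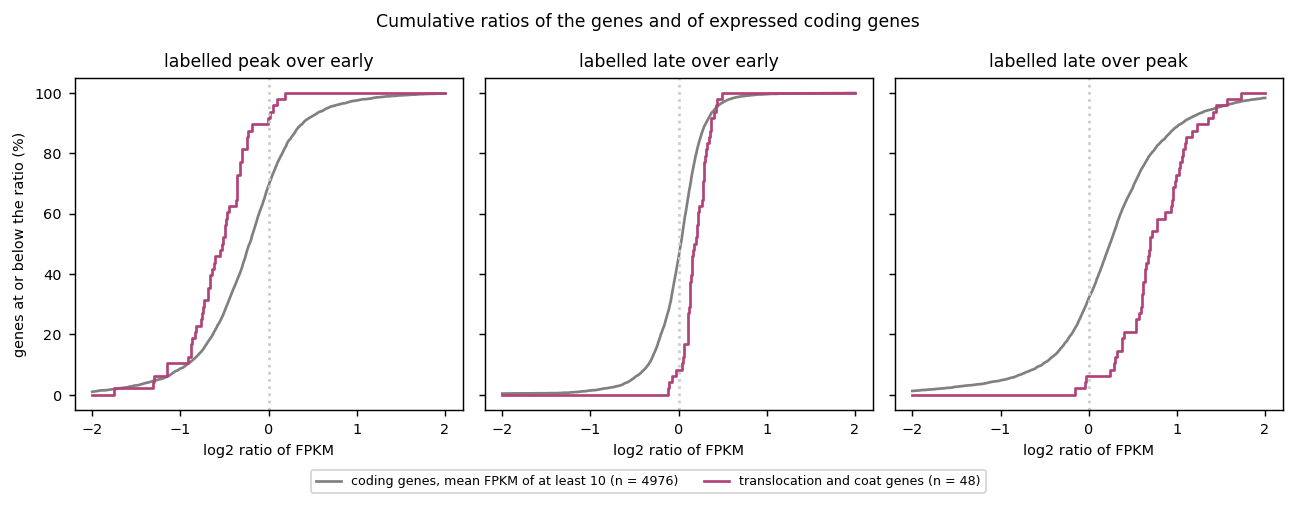
Cumulative percentage of genes at or below a log2 ratio of FPKM, for the 48 genes (purple) and for 4976 protein-coding genes with a mean of at least 10 FPKM (grey), in the 3 comparisons by label. The purple curve lies left of the grey one over most of its length for peak over early, and right of it for late over peak, with medians of -0.53 against -0.22 and of 0.69 against 0.24.

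The channel genes had the low peak-labelled value in every member. SEC61A1, which forms the pore, was at 144 FPKM in the early-labelled, 86.6 FPKM in the peak-labelled and 176 FPKM in the late-labelled library. SEC61G, a small subunit that clamps the pore, followed the same course at 172, 93.2 and 209 FPKM. SEC63, a membrane partner that recruits the luminal chaperone BiP, was lower in abundance at 33.3, 20.9 and 40.3 FPKM. In log2 units the peak over early ratio was -0.74 for SEC61A1, -0.88 for SEC61G and -0.67 for SEC63, so these 3 genes lay within a narrow band. SEC62, which helps short secretory proteins enter after translation, stood apart from them at 80.0, 23.7 and 78.0 FPKM. Its early-labelled value was 3.38-fold the peak-labelled one, the widest difference among the 48 genes, and its late over early log2 ratio was -0.04. The summed FPKM of the 5 channel genes was 474, 252 and 556 in the early-labelled, peak-labelled and late-labelled library.

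The TRAP complex sits beside the channel and helps some signal peptides to open it. SSR4, its delta subunit, was the most abundant of the 48 genes, at 776 FPKM in the early-labelled, 313 FPKM in the peak-labelled and 733 FPKM in the late-labelled library. It ranked in the top 0.323%, 0.568% and 0.299% of protein-coding genes of these libraries, and the early-labelled value was 2.48-fold the peak-labelled one. The other subunits were less abundant and closer to each other. SSR1 was at 127, 103 and 166 FPKM, SSR2 at 169, 120 and 184 FPKM, and SSR3 at 158, 97.7 and 204 FPKM. All 4 were lowest in the peak-labelled library, but with the rescaled libraries the peak over early ratio of SSR1 changed its sign. On the FPKM scale, which is per length, SSR4 exceeded its partners in every library.

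Signal recognition particle genes differed less as a group. Their median peak over early log2 ratio was -0.37, while that of the channel genes was -0.74. SRP54, the GTPase that holds the signal peptide, was at 48.2 FPKM in the early-labelled, 28.4 FPKM in the peak-labelled and 59.0 FPKM in the late-labelled library. SRP72, which with SRP68 forms the large heterodimer of the particle, was at 33.2, 18.7 and 38.3 FPKM. Its partner SRP68 had 12.6, 14.2 and 13.7 FPKM, so the peak-labelled value was the highest of the 3. The partners of this heterodimer therefore differed in order, with SRP72 at least 2-fold apart between the late-labelled and peak-labelled libraries and SRP68 at a log2 ratio of -0.05. SRP9, which arrests elongation together with SRP14, was at 13.8, 10.7 and 15.5 FPKM. SRPRB, the membrane-anchored subunit of the receptor, was at 41.8, 41.5 and 53.9 FPKM, which put the early-labelled and peak-labelled libraries next to each other. Its peak over early direction changed under both centring on the median gene and rescaling.

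Signal peptidase had the widest range of peak over early ratios within a complex. SEC11C and SEC11A are alternative catalytic subunits of this enzyme. SEC11C was at 119 FPKM in the early-labelled, 53.4 FPKM in the peak-labelled and 158 FPKM in the late-labelled library, and SEC11A was at 17.8, 18.9 and 18.4 FPKM. The SEC11C values spanned 2.96-fold and those of SEC11A only 1.07-fold. SPCS3, a non-catalytic subunit, was at 29.6, 25.1 and 39.7 FPKM. The median peak over early log2 ratio of the 5 peptidase genes was -0.24 as deposited and 0.07 with the rescaled libraries, so the direction of this median depends on the scaling, whereas that of SEC11C did not. The locus of SEC11C was also listed for TAOK3 and an unnamed gene, with at most 7.89 FPKM for either in any library, and what these entries add to its value was not tested.

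**Figure D3:**
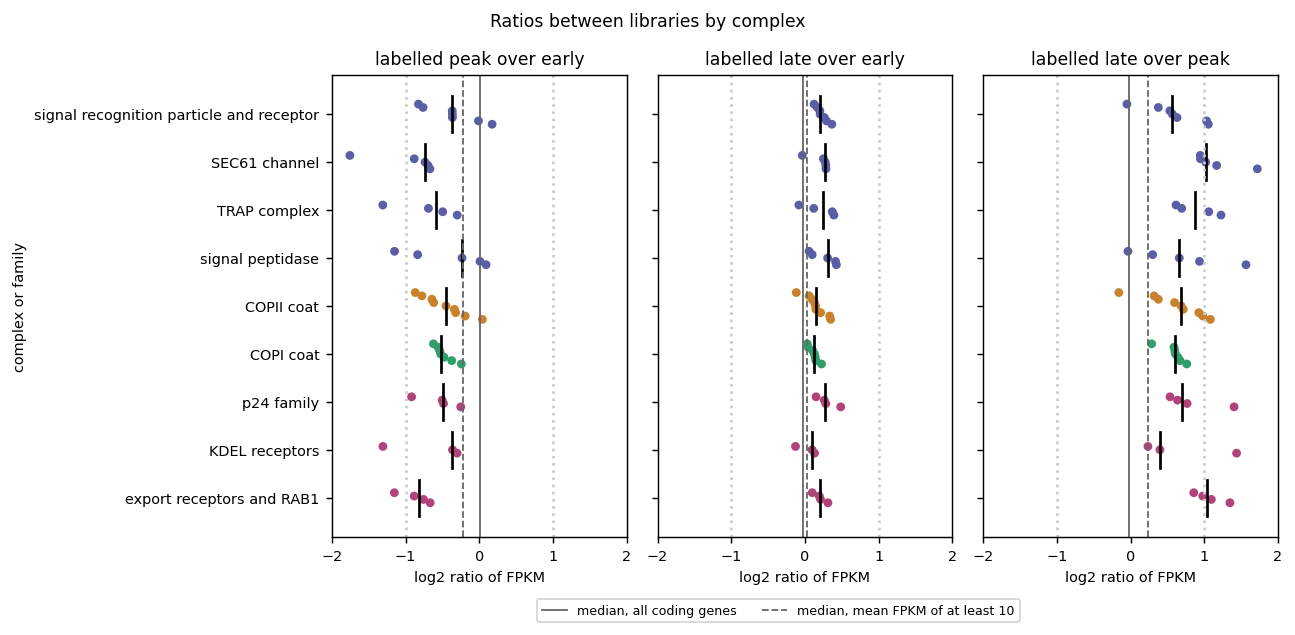
Log2 ratios of FPKM of the 48 genes in 9 complexes or families (points), with the median of each (black bar), for the 3 comparisons by label. The solid line is the median of all protein-coding genes, the dashed line that of genes with a mean of at least 10 FPKM, and the dotted lines mark 2-fold. COPI points lie close together, between -0.62 and -0.24 for peak over early, while those of the signal peptidase are spread from -1.15 to 0.09.

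COPII genes had a median peak over early log2 ratio of -0.45, with 8 of 9 lower in the peak-labelled library and none at least 2-fold lower. SAR1A and SAR1B are the GTPases that start the coat. SAR1A was the most abundant COPII gene at 78.6 FPKM in the early-labelled, 45.8 FPKM in the peak-labelled and 87.1 FPKM in the late-labelled library, and SAR1B had 19.1, 15.1 and 24.3 FPKM. Both shared the order of the libraries, with a wider interval for SAR1A at a peak over early log2 ratio of -0.78 than for SAR1B at -0.34. SEC23 stimulates the GTPase activity of SAR1, and the SEC23 paralogs differed in order. SEC23B had 28.0, 17.9 and 35.4 FPKM, whereas SEC23A had 9.66, 9.94 and 8.90 FPKM, the only member with its highest value in the peak-labelled and its lowest in the late-labelled library. The SEC24 proteins select the cargo. SEC24D was at 31.1, 17.0 and 36.0 FPKM, and the late-labelled value was 2.12-fold the peak-labelled one, the only COPII gene past 2-fold. SEC24C had 31.8, 23.2 and 35.1 FPKM, and SEC24A had 15.4, 13.5 and 16.8 FPKM. With the rescaled libraries SEC24A changed the sign of its peak over early ratio, and COPII as a group kept 7 of 9 lower.

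COPI genes formed the tightest group. All 7 were lower in the peak-labelled than in the early-labelled library, with a median log2 ratio of -0.52 and a standard deviation between genes of 0.13, against 0.48 over the 21 translocation genes and 0.29 over the 9 COPII genes. COPG1, the gamma subunit of the adaptor part, was at 40.4 FPKM in the early-labelled, 26.2 FPKM in the peak-labelled and 44.5 FPKM in the late-labelled library. COPB1, the beta subunit, had 45.7, 35.2 and 53.4 FPKM, and COPZ1, the zeta subunit, had 43.1, 29.3 and 44.0 FPKM. Early-labelled and late-labelled values of these genes were near each other, with log2 ratios from 0.03 for COPZ1 to 0.22 for COPB1. COPE, the epsilon subunit, was the most abundant at 79.7, 67.3 and 82.0 FPKM and the least different between libraries, and rescaling turned its sign in both comparisons with the peak-labelled library. None of the COPI genes was at least 2-fold apart in any comparison, and 6 of 7 were at least 1.5-fold higher in the late-labelled than in the peak-labelled library.

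Cargo receptors included some of the larger differences. MCFD2 and LMAN1 form a receptor that takes selected glycoproteins out of the ER. MCFD2 was at 67.7 FPKM in the early-labelled, 30.4 FPKM in the peak-labelled and 77.4 FPKM in the late-labelled library, and LMAN1 had 41.4, 24.4 and 44.3 FPKM. Both were lowest in the peak-labelled library, by 2.22-fold and 1.69-fold against the early-labelled one. SURF4, an export receptor for soluble proteins, was at 82.5, 51.9 and 102 FPKM. RAB1A, the GTPase that directs these vesicles to the Golgi, had 107, 58.0 and 124 FPKM. All 4 genes were at least 1.5-fold lower in the peak-labelled library than in either other library, and they kept this direction with the rescaled libraries, at a median peak over early log2 ratio of -0.51.

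The p24 proteins are membrane receptors found in both kinds of coated vesicle. TMED2 was at 133 FPKM in the early-labelled, 93.8 FPKM in the peak-labelled and 160 FPKM in the late-labelled library, and TMED10 had 81.3, 68.2 and 98.8 FPKM. TMED9 was at 67.5, 48.2 and 75.0 FPKM. TMED3 differed most, at 96.2, 50.8 and 135 FPKM, with the late-labelled value 2.65-fold the peak-labelled one and 1.40-fold the early-labelled one. The KDEL receptors retrieve ER chaperones from the Golgi. KDELR3 had 18.0, 7.25 and 19.7 FPKM, the lowest peak-labelled value of the 48 genes. KDELR2 was at 39.0, 31.6 and 41.7 FPKM, and KDELR1 at 16.0, 12.4 and 14.6 FPKM, so the 3 receptors shared a low peak-labelled value but not its size. Rescaling turned the peak over early sign of KDELR2 and TMED10, and the late over peak sign of KDELR1. The locus of KDELR3 was also listed for the RNA helicase gene DDX17, which had 173, 157 and 172 FPKM, and its part in the KDELR3 value was not tested.

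The 10 genes not written out above, namely SRP14, SRP19, SEC61B, SPCS1, SPCS2, SEC13, SEC31A, COPA, COPB2 and ARCN1, had 31.0 to 65.4 FPKM in the early-labelled, 24.1 to 63.6 FPKM in the peak-labelled and 32.2 to 78.3 FPKM in the late-labelled library. Their peak over early log2 ratios ran from -0.84 to 0.01, and none was 2-fold apart in any comparison.

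Where a step is served by paralogs, their shares of the summed FPKM differed between libraries. SEC11C made up 87.0% of the SEC11 sum in the early-labelled, 73.8% in the peak-labelled and 89.5% in the late-labelled library. For SEC23B these shares were 74.4%, 64.3% and 79.9%. Among the SEC24 genes, with SEC24B taken from the wider pathway list, SEC24D had 35.6%, 27.8% and 37.1%. KDELR3 had 24.6%, 14.1% and 25.9% of the KDEL receptor sum, and TMED3 25.4%, 19.5% and 28.8% of the sum of the 4 p24 genes. SAR1A held 80.5%, 75.2% and 78.2% of the SAR1 sum, the smallest shift between early and peak of those given here. Shares within a family do not depend on how the libraries are scaled. Without replicates, the spread of a share between animals is unknown.

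**Figure D4:**
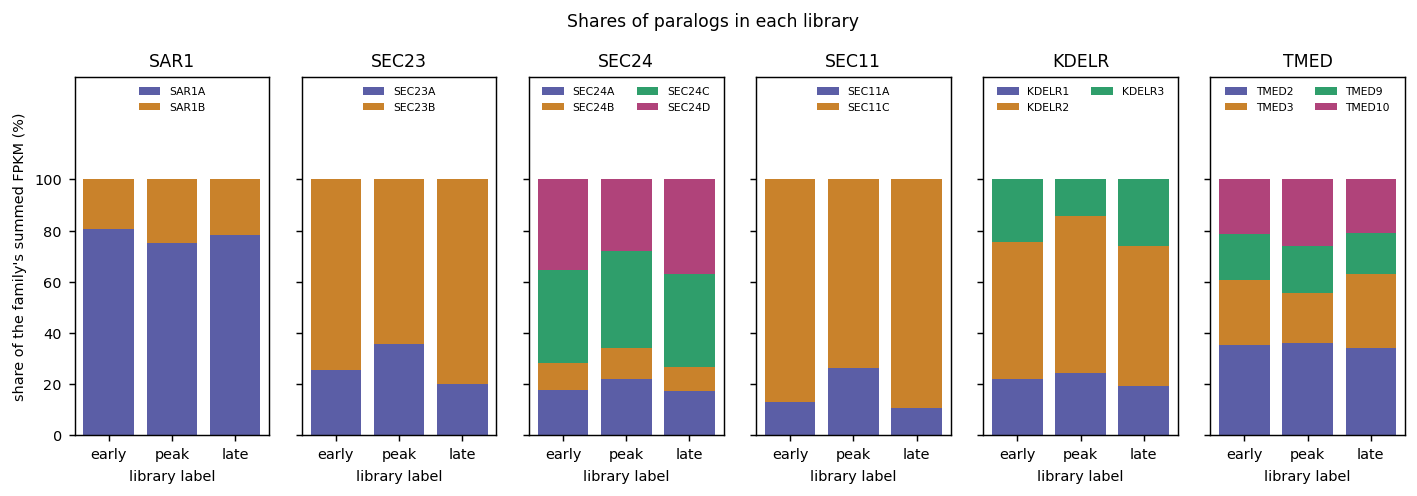
Stacked bars of each paralog's share, in %, of the summed FPKM of its family in the early-labelled, peak-labelled and late-labelled library (1 library each, no error bars). The bar parts of SEC11C, SEC23B, SEC24D, KDELR3, TMED3 and SAR1A are smallest in the peak-labelled library.

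The size of the difference was also set beside abundance. Across the 48 genes, which share the libraries and are not independent, the Spearman coefficient between early-labelled FPKM and the peak over early log2 ratio was -0.46. This has the early-labelled value on both axes, which alone can make a coefficient negative. With the mean FPKM, which also holds the values compared, it was -0.37. Between early-labelled FPKM and the late over peak log2 ratio, which have no value in common, it was 0.50. However, the late over early log2 ratios of these genes ran only from -0.13 to 0.48. Early-labelled FPKM is thus close to the late-labelled values in that ratio, and a similar coupling can remain. The same coefficients over other protein-coding genes were not computed, so no relation particular to these genes is shown. For the span of the locus and the peak over early log2 ratio the coefficient was 0.12.

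Other genes of ER insertion and vesicle transport, 91 in 9 lists of which 86 had values, were set beside them. The clathrin coat and tail-anchor insertion lists are counted here, though they lie outside the route from SEC61 to the Golgi. In the peak-labelled library 73 of 86 (84.9%) were lower than in the early-labelled one, against 69.3% of the more abundant protein-coding genes, and the median log2 ratio was -0.34, against -0.22. At least 2-fold lower were 4 (4.65%) and higher 1, against 8.64% and 2.49% of the more abundant genes, so large differences were not more frequent in these lists. Rescaling, which adds the same amount to every ratio, gave 46 of 86 (53.5%) lower and a median of -0.04, against 41.6% and 0.09 for the more abundant genes. The oligosaccharyltransferase, which adds N-glycans at the channel, had 11 of 12 genes lower, none 2-fold, and a median of -0.50. Its OSTC had 48.1 FPKM in the early-labelled, 30.1 FPKM in the peak-labelled and 64.8 FPKM in the late-labelled library, and this was the only gene of that list at least 2-fold apart, between late and peak.

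SNAREs and tethers of the ER-Golgi step were lower in 14 of 14 genes, with a median of -0.51, and 2 were at least 2-fold lower. These were YKT6, a lipid-anchored SNARE, at 126, 62.5 and 153 FPKM, and GOLGA2, the Golgi matrix protein GM130, at 42.5, 21.0 and 46.6 FPKM. BET1, another SNARE of this step, had 15.6, 9.47 and 20.4 FPKM and was 2-fold apart only between late and peak. In the list of other COPII and exit site genes, 13 of 13 were lower at a median of -0.29. Of the more abundant genes 69.3% were lower, and their median of -0.22 was near that of the list. KLHL12 was nearly equal at 6.84 FPKM in the early-labelled and 6.83 FPKM in the peak-labelled library. SEC16B, a scaffold of ER exit sites, differed most at 45.8, 14.4 and 53.2 FPKM, a peak over early log2 ratio of -1.67. SEC31B, the paralog of the outer coat gene SEC31A, had 4.23, 2.49 and 5.56 FPKM and was 2-fold apart between late and peak.

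Among the partners of the channel, TRAM2 ran the other way at 3.23, 10.4 and 2.32 FPKM, while TRAM1, which assists the entry of signal peptides, had 62.7, 51.1 and 98.0 FPKM. This list had 2 of 4 genes lower, a median of -0.08. The remaining lists held few 2-fold differences, and their counts stand beside 69.3% lower and a median of -0.22 for the more abundant genes. AP1S1 of the clathrin adaptor list had 36.3, 17.9 and 35.9 FPKM, and this list had 10 of 11 lower at a median of -0.32. The ER membrane complex had 10 of 10 lower, a median of -0.39 and MMGT1 as its largest ratio at 10.1, 5.35 and 8.21 FPKM. Other COPI genes and the ARF cycle had 6 of 10 lower, a median of -0.30 and, as the largest ratio of any comparison, ARFGAP3 at 56.8, 34.8 and 69.2 FPKM, a late over peak log2 ratio of 0.99. Other p24 and lectin receptors had 5 of 8 lower and a median of -0.05, and their largest ratio above 1 FPKM was that of TMED7 at 35.3, 23.7 and 39.0 FPKM. The genes for inserting tail-anchored proteins, 4 of 7 with values, had 2 lower at a median of -0.05, with UBL4A at 52.4, 41.0 and 59.3 FPKM.

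**Figure D5:**
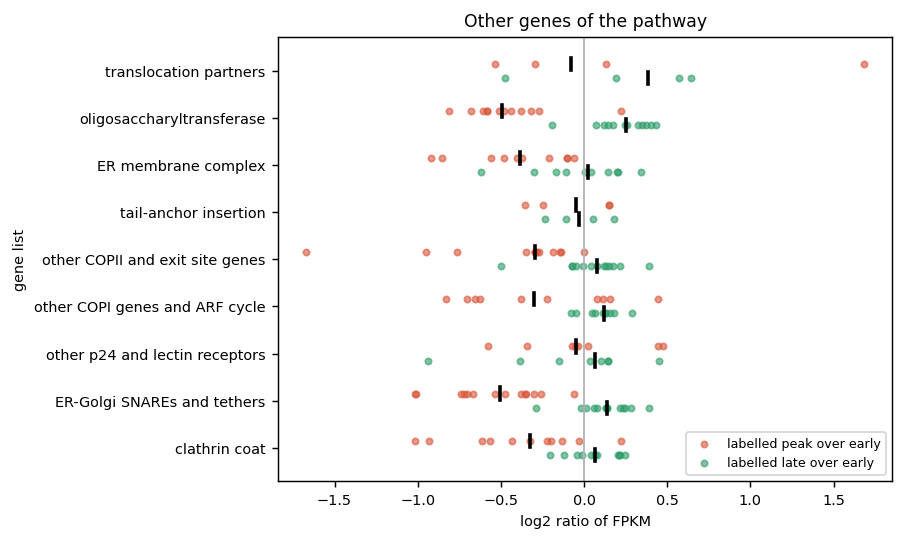
Log2 ratios of FPKM of 86 further genes in 9 lists (points) for the peak-labelled over the early-labelled library (red) and the late-labelled over the early-labelled library (green), with the median of each list as a black bar. For the SNAREs and tethers and for the oligosaccharyltransferase the red medians are -0.51 and -0.50, and for the tail-anchor list the red median is -0.05.

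Markers of cell types also differed between the same libraries. At least 2-fold lower in the peak-labelled than in the early-labelled library were 6.8% of all protein-coding genes and 8.64% of the more abundant ones. Of 13 markers of secretory luminal epithelium, 8 reached this, among them PAEP at 84874, 26998 and 83113 FPKM. The keratin genes KRT8, KRT18 and KRT19 and the adhesion genes EPCAM and CDH1 did not share this, with KRT8 at 126, 196 and 154 FPKM. The whole list summed to 217542, 63037 and 164648 FPKM, and LALBA was listed at 0 in the late-labelled library only. Without LALBA the sums were 147489 FPKM in the early-labelled, 47823 FPKM in the peak-labelled and 164648 FPKM in the late-labelled library, which turns the order of early and late and leaves the peak-labelled sum the lowest. All 9 B and plasma cell markers were higher in the peak-labelled than in the early-labelled library. So were 6589 of 13020 protein-coding genes and 30.7% of the more abundant ones. The 9 markers summed to 298, 536 and 360 FPKM, most of it from JCHAIN at 266, 429 and 337 FPKM. Between peak and early their direction was thus opposite to that of most ER genes. Between late and early, 7 of the 9 were lower in the late-labelled library, unlike the sum. So were 7040 of 13004 protein-coding genes and 45.6% of the more abundant ones. T cell markers summed to 17.6, 44.8 and 6.94 FPKM, with 5 of 6 highest in the peak-labelled library and CD3E listed at 0 in the early-labelled and peak-labelled ones. The 5 were at least 2-fold higher in the peak-labelled than in the early-labelled library. Of all protein-coding genes 10.9% were, and of the more abundant ones 2.49%. Macrophage markers summed to 43.7, 58.3 and 27.5 FPKM, with 5 of 5 higher in the peak-labelled than in the early-labelled library. However, CD14 at 12.4 and 12.5 FPKM and ITGAM at 2.29 FPKM in either library were nearly equal. At least 1.5-fold higher were 2 of the 5, against 21.1% of all protein-coding genes and 6.23% of the more abundant ones. Fibroblast markers summed to 664, 549 and 542 FPKM, but their members differed in direction. DCN at 131, 254 and 106 FPKM and PDGFRA at 13.7, 28.0 and 11.3 FPKM were highest in the peak-labelled library, while COL1A2 at 138, 65.8 and 106 FPKM and COL3A1 at 255, 123 and 220 FPKM were lowest there. Adipocyte markers summed to 18.1, 5.85 and 6.41 FPKM, most of it from ADIPOQ at 15.1, 4.10 and 5.69 FPKM. Endothelial markers summed to 142, 134 and 154 FPKM, with 4 of 6 lower in the peak-labelled than in the early-labelled library, and myoepithelial markers to 301, 292 and 310 FPKM, with 5 of 8 lower. Lower in the same way were 49.4% of all protein-coding genes and 69.3% of the more abundant ones, so these counts do not set the markers apart. The part of cell composition in the values of the 48 genes was not tested.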

How the data were processed

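Per the labels and the study's methods, reads were trimmed with Trimmomatic and mapped with TopHat (TopHat2 2.0.9), transcripts were assembled with Cufflinks 2.1.1 and merged with Cuffmerge, and the authors deposited FPKM from Cuffdiff in 1 column per library. The study names more than 1 goat assembly and the file names none, so no coordinates are given. Gene IDs were matched to symbols of the ARS1.2 gene table, and loci of 1 gene ID were summed. Each of the 48 members had 1 locus, and 4 (SEC61B, SEC11C, SEC24D, KDELR3) shared it with other entries. Ratios use FPKM as deposited, and 0 was set to 0.001 for counts over all genes. Of the values with 7 digits, 95.7% to 99.3% per column ended in 5, as means of a pair of shorter values would, but no averaging is stated. Read numbers behind an FPKM are unknown, so no interval is given, and with 1 library a stage no test was run. Members, lists and the fold of 2 were chosen with earlier results of these data known. Named genes are those 2-fold apart, the 5 most and 5 least abundant, the extremes of each complex and all paralogs, and in further lists the 2-fold genes above 1 FPKM or else the largest ratio above 1 FPKM. The code for fold counting was run on simulated data with set changes well past the fold of 2, which does not test calls near that fold. Protein and promoter sequences were not analysed here. Values were computed in Python 3.11.15 with pandas 2.3.3 and numpy 2.4.6 (correlations with scipy 1.17.1) and drawn with matplotlib 3.10.9.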

Additional observations from a re-analysis of the deposited data

How the results depend on the processing

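No paired analysis was possible because the labels give 1 pooled library a stage, and for the same reason no replicate could be left out. Numbers of members at least 2-fold apart were 5 for peak over early, 0 for late over early and 13 for late over peak. With a threshold of 1.5 the first and last were 22 and 35, and with a threshold of 4 both were 0. Rescaling to one protein-coding sum without milk proteins gave 3 and 5, and medians of -0.22, 0.20 and 0.40. Centring on the median of protein-coding genes gave medians of -0.51, 0.19 and 0.66. With a pseudocount of 1 they were -0.52, 0.17 and 0.67, and with members of a mean of at least 10 FPKM only, -0.54 for peak over early and 0.19 for late over early. Leaving out the 4 members that share a locus, chosen after seeing the data, gave 3 members for peak over early and medians of -0.50, 0.16 and 0.67. An exchange of the peak-labelled with the late-labelled column gave 0 members and a median of 0.18 for peak over early, 5 and -0.53 for late over early, and a median of -0.69 for late over peak, which follows from the exchange itself. A pseudocount of 0.1 and taking the highest locus only left each count and each median as printed. For the other settings the cause of a change was not tested, apart from the stricter or looser threshold.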
